A study of Homo sapiens with 4 samples.

Results

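The genes described here are 10 feedback genes of the ERK pathway, *DUSP1*, *DUSP4*, *DUSP5*, *DUSP6*, *SPRY2*, *SPRY4*, *SPRED1*, *SPRED2*, *ETV4* and *ETV5*. They were chosen by name, as genes that ERK signaling is known to induce, but with earlier results of these data known. They were found through their Ensembl gene identifiers among the 58226 identifiers of the count files. All 10 were found, and all 10 passed the filter on low values in every comparison. RNA-seq was performed on 4 libraries of U87MG, a human glioblastoma cell line, with 1 library for each condition. Parental U87MG cells received non-targeting control siRNAs (si-NC) or siRNA against the long non-coding RNA *LINC00461* (si-*LINC00461*). TMZ-resistant U87MG cells (R-U87MG) received si-NC or siRNA against the deacetylase HDAC6 (si-HDAC6). R-U87MG is 1 line derived from U87MG and kept in medium with temozolomide (TMZ), an alkylating drug, so the R-U87MG libraries share a selection and a drug that the parental libraries do not. The study's methods describe the siRNAs as commercial pools, but its list of target sequences gives several for HDAC6 and for the non-targeting control and a single one for *LINC00461*. Every condition had 1 library, so no difference between conditions could be tested against the spread of replicates. The intervals given are 95% exact binomial (Clopper-Pearson) intervals that cover counting error of these libraries only.

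The libraries held 12596072 to 20027865 fragments assigned to genes, and a count of 3 fragments corresponded to 0.150 to 0.238 CPM, the fragments of a gene scaled to a common library total. CPM here are levels over the library total, whereas the ratios use TMM scaling within a pair of libraries. Between the lines the 2 scales differ, so CPM of R-U87MG and U87MG libraries do not give the printed ratio, and their order is described on the CPM scale only. Mitochondrial genes took 3.33% to 4.76% of the fragments. *HDAC6* had 296 fragments in R-U87MG si-NC, 67 in R-U87MG si-HDAC6, 649 in U87MG si-NC and 540 in U87MG si-*LINC00461*, and *LINC00461* had 154, 80, 363 and 73. The targeted RNA was lower in its own knockdown library, with a log2 ratio of -1.74 (-2.16 to -1.36) for *HDAC6* and -2.12 (-2.51 to -1.76) for *LINC00461*. Among 7 glioma-line markers, *VIM*, *CD44* and *NES* were present in every library, whereas *GFAP* had at most 13 fragments and *SOX2* and *S100B* at most 4. *OLIG2* had 92 fragments in R-U87MG si-NC, 115 in R-U87MG si-HDAC6, 15 in U87MG si-NC and 18 in U87MG si-*LINC00461*. The astrocyte markers *GFAP* and *S100B* were therefore at or near 0. Leukocyte markers summed to at most 1.58 CPM.

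ERK is the last kinase of the cascade that runs from receptor tyrosine kinases through RAS, RAF and MEK. Active ERK induces a set of genes whose proteins switch the cascade off again. Dual-specificity phosphatases (DUSPs) remove phosphate from the kinases of the MAPK family, Sprouty and SPRED proteins act between the receptor and RAF, and *ETV4* and *ETV5* encode ETS transcription factors that carry the signal into further gene expression. In glioblastoma, a tumor in which EGFR and PDGFRA signaling are often altered, levels of these RNAs are commonly read as a sign of ERK output. ERK phosphorylation and protein levels were not measured in these libraries. In RNA from whole cultures, fewer cells with a transcript and less transcript per cell cannot be told apart.

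The members lie on 9 chromosomes of GRCh38, with *DUSP1* and *SPRY4* both on chromosome 5. *DUSP6* spans chr12:89347232-89353271 on the minus strand, *SPRY4* spans chr5:142310427-142326455 on the minus strand and *SPRED2* spans chr2:65310851-65432637 on the minus strand. *DUSP5* spans chr10:110497838-110511544 on the plus strand and *SPRY2* spans chr13:80335976-80340951 on the minus strand. All 10 are protein-coding genes, with spans from 3.11 kb for *DUSP1* to 122 kb for *SPRED2*. RefSeq promoter windows (GRCh38.p14, 250 bases before to 50 after a start site) of 6 members, 9 windows in all, were used. They were searched on both strands for DNA words of factors that act downstream of ERK. Promoters of *DUSP4*, *DUSP5*, *ETV4* and *ETV5* were not searched, so the counts of member windows say nothing of these genes. The word TGACGTCA, the cAMP response element bound by CREB, was in the *DUSP1* window and in 1.85% of all 35116 windows. TGANTCA, bound by AP-1, was in 1 *SPRED2* window, in 2 copies, and in 7.71% of all windows. CCGGAA, an ETS core, was in 1 *SPRY2* window and in 17.2% of all windows. The words of the repressor CIC (TGAATGAA and TGAATGGA) and the CArG box were in none of the 9 windows, and were in 1.65%, 1.03% and 1.29% of all windows. The stretches that hold a word are given below as the gene's own strand reads, with the word in capitals, because they are the places in these windows where such a factor could be looked for.
DUSP1, chr5:172771304-172771329, minus strand: cagggcgggTGACGTCAccgccccgt
SPRED2, chr2:65366769-65366793, minus strand: accctcggaTGACTCAtccggtaca
SPRED2, chr2:65366729-65366753, minus strand: caaggagacTGAATCAtatatgggg
SPRY2, chr13:80341253-80341278, minus strand: cctgcctcctCCGGAAaggcgagggc
The *DUSP1* word lies 125 to 118 bases before the start site. The first *SPRED2* copy ends on the start base of an internal start site, and the second lies within the transcript. The *DUSP6*, *SPRY4* and *SPRED1* windows held none of the words, which says only that these letters were not in these windows.

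The U87MG si-*LINC00461* library was set beside U87MG si-NC to see which RNAs differed after depletion of this lncRNA. The 2 libraries also differ in siRNA and in culture, which cannot be told apart from the loss of the lncRNA. Several of the feedback genes, but not all, were at least 2-fold higher in U87MG si-*LINC00461* than in U87MG si-NC. Of the 10 members, 5 reached a 2-fold higher level (*DUSP5*, *DUSP6*, *SPRY2*, *SPRY4* and *SPRED2*) and 0 a 2-fold lower one. Among the 13210 genes compared, 5.42% were past 2-fold upward and 8.17% past 2-fold downward. The counting interval lay above 0 for 9 members and for 33.1% of all genes. The median log2 ratio was 1.02 over the members and -0.00 over all genes. Because the members were chosen with earlier results of these data known, this contrast with all genes is a description only. The summed level of the members was 644 CPM in U87MG si-NC and 1478 CPM in U87MG si-*LINC00461*, against 807 CPM in R-U87MG si-NC and 863 CPM in R-U87MG si-HDAC6. On this scale the members' sum was highest in the *LINC00461* knockdown and lowest in the control of the same cells.

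**Figure D1:**
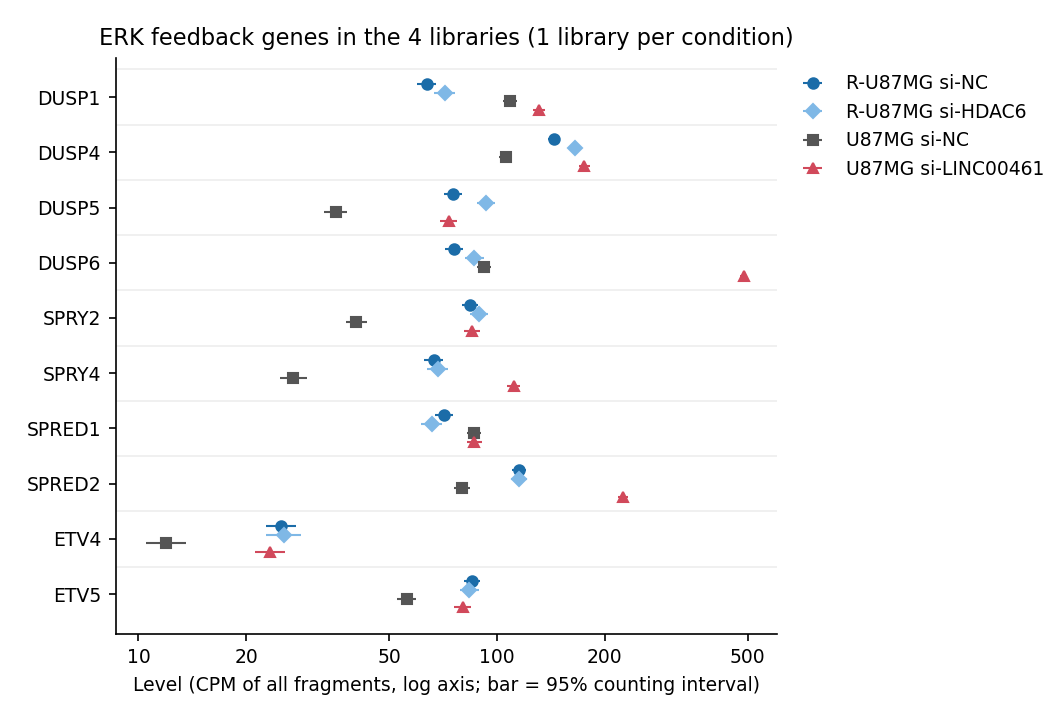
Level of each of the 10 members (CPM, log axis) in the 4 libraries, 1 point per library with its 95% counting interval. *DUSP6* stands at 488 CPM in U87MG si-*LINC00461* and between 75.9 and 92.1 CPM in the other libraries.

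*DUSP6*, the cytoplasmic phosphatase that acts on ERK itself, differed most. It had 75.9 CPM in R-U87MG si-NC, 86.5 in R-U87MG si-HDAC6, 92.1 in U87MG si-NC and 488 in U87MG si-*LINC00461*, from 1263, 1089, 1845 and 8667 fragments. The *LINC00461* knockdown stood far above the other 3 libraries. Its ratio between the U87MG libraries was 5.35-fold, a log2 ratio of 2.42 (2.35 to 2.49), and 91 of the 13210 genes had a higher one. *DUSP6* alone made up 14.3% of the members' fragments in U87MG si-NC and 33.0% in U87MG si-*LINC00461*. Without it, the sum of the other 9 was 552 CPM and 990 CPM in these libraries, so *DUSP6* did not account for the whole difference in the sum.

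The other phosphatases among the members act in the nucleus. *DUSP5*, which is selective for ERK, had 75.4 CPM in R-U87MG si-NC, 93.0 in R-U87MG si-HDAC6, 35.5 in U87MG si-NC and 73.5 in U87MG si-*LINC00461*. U87MG si-NC was the low library. The log2 ratio between the U87MG libraries was 1.06 (0.93 to 1.20), or 2.09-fold. *DUSP4*, an inducible phosphatase of ERK and JNK, had 144, 165, 106 and 175 CPM in the same order of libraries. It was lowest in U87MG si-NC, and its log2 ratio of 0.74 (0.66 to 0.82) was short of 2-fold. *DUSP1*, an immediate early gene whose protein acts mainly on p38 and JNK, had 63.8, 71.5, 109 and 131 CPM. Unlike the other phosphatases of nuclear location it was lower in both R-U87MG libraries than in both U87MG libraries, and its log2 ratio after *LINC00461* depletion was 0.28 (0.20 to 0.37). Of the 4 phosphatases, *DUSP5* and *DUSP6* were past 2-fold, and *DUSP4* and *DUSP1* had ratios of 1.67-fold and 1.22-fold.

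The Sprouty genes encode membrane-associated inhibitors that act between receptor tyrosine kinases and RAF. *SPRY4* had 66.5 CPM in R-U87MG si-NC, 68.4 in R-U87MG si-HDAC6, 27.1 in U87MG si-NC and 111 in U87MG si-*LINC00461*. It was lowest in U87MG si-NC and highest in the knockdown of the same cells, with the R-U87MG libraries in between. The log2 ratio was 2.05 (1.92 to 2.19), or 4.15-fold, and 140 genes had a higher one. *SPRY2* had 84.1, 89.2, 40.5 and 85.1 CPM in the same order. U87MG si-NC lay below the other libraries, with a log2 ratio of 1.08 (0.96 to 1.21) for the knockdown, or 2.12-fold.

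SPRED proteins bring neurofibromin, the RAS inactivator encoded by *NF1*, to the membrane. The members of this family differed from each other. *SPRED2* had 115 CPM in R-U87MG si-NC, 115 in R-U87MG si-HDAC6, 79.9 in U87MG si-NC and 224 in U87MG si-*LINC00461*, and its log2 ratio was 1.504 (1.42 to 1.59), or 2.84-fold. *SPRED1* had 71.0, 65.7, 86.3 and 86.5 CPM in the same order. The U87MG libraries did not differ in *SPRED1* beyond counting error, with a log2 ratio of 0.02 (-0.08 to 0.12), and *SPRED1* was the member whose ratio was lowest.

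*ETV4* and *ETV5* encode ETS transcription factors of the PEA3 group. *ETV4* had 25.0 CPM in R-U87MG si-NC, 25.4 in R-U87MG si-HDAC6, 11.9 in U87MG si-NC and 23.3 in U87MG si-*LINC00461*. It rested on the fewest fragments of the 10, 239 in U87MG si-NC and 415 in the knockdown, and its log2 ratio of 0.98 (0.75 to 1.22) had an interval that spans the 2-fold threshold. *ETV5* had 85.2, 83.7, 56.0 and 80.2 CPM, with a log2 ratio of 0.53 (0.42 to 0.65). Both had their lowest level in U87MG si-NC, and neither reached 2-fold in the knockdown.

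Both *DUSP5* and *SPRY2* had intervals that reach below 2-fold, as *ETV4* did. With the whole interval required to lie beyond 2-fold, 3 members were higher (*DUSP6*, *SPRY4* and *SPRED2*), beside 2.88% of all genes, and 0 were lower, beside 4.78%. At a 1.5-fold threshold *DUSP4* and *ETV4* joined the 5, giving 7 members higher, beside 14.2% of all genes, and 0 lower, beside 16.8%.

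**Figure D2:**
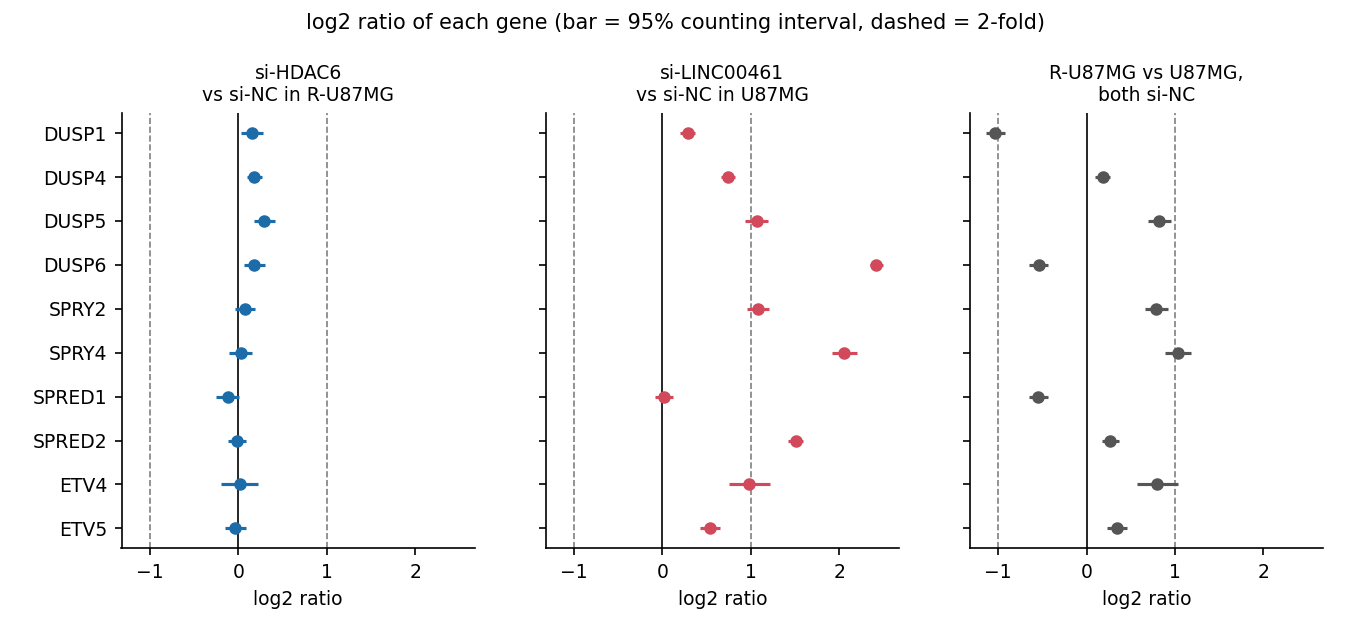
Log2 ratio of each member in the 3 comparisons, with its 95% counting interval and dashed lines at 2-fold. After *LINC00461* depletion the points run from 0.02 for *SPRED1* to 2.42 for *DUSP6*, whereas after HDAC6 depletion they run from -0.12 to 0.29.

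**Figure D3:**
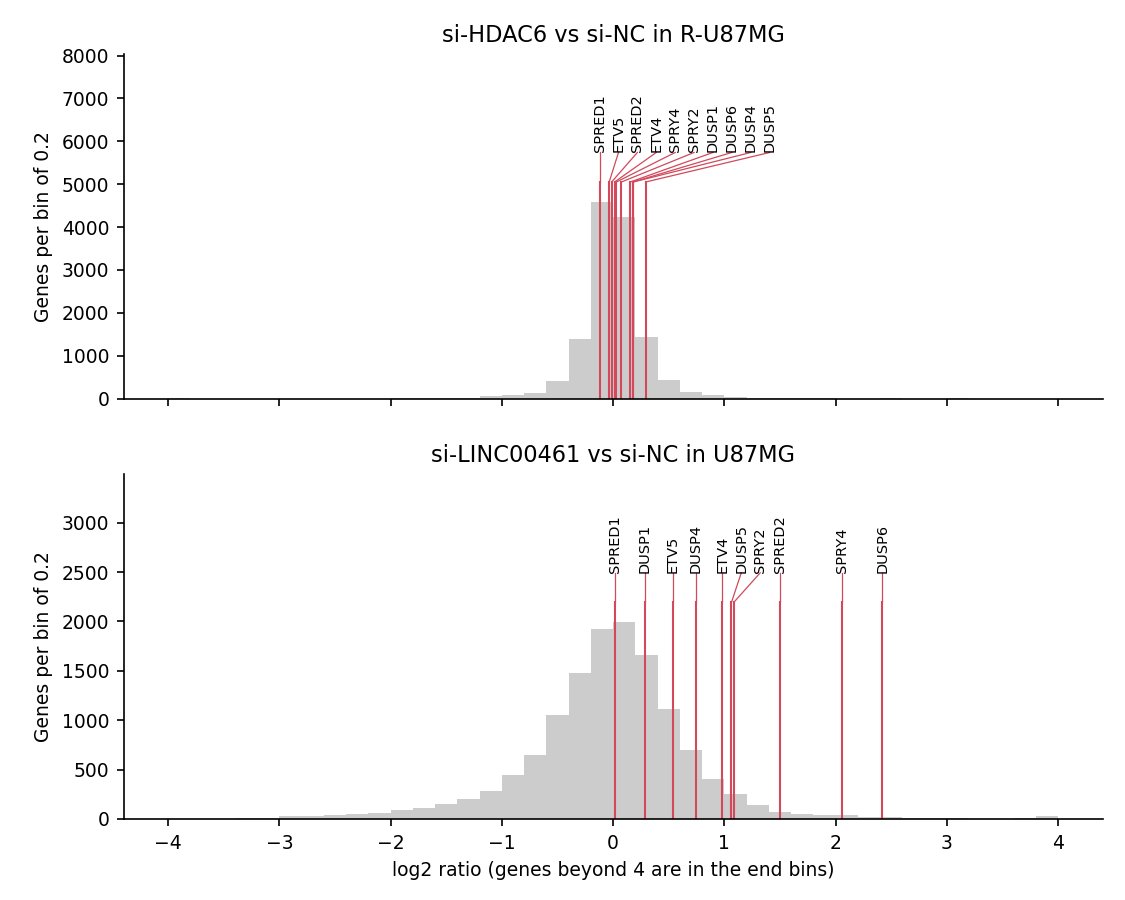
Histograms of the log2 ratios of all genes compared (genes per bin of log2 ratio) after HDAC6 depletion in R-U87MG and after *LINC00461* depletion in U87MG, with a line for each of the 10 members. In the *LINC00461* comparison the members' median of 1.02 lies to the right of the median of all genes, -0.00.

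The rest of the pathway, described from lists of named genes, was spread on both sides of 0. Among the relatives of the members, the phosphatase genes *DUSP7* and *DUSP9* had log2 ratios of -0.66 (-0.80 to -0.53) and 0.66 (-0.21 to 1.58), and 0 of the 3 other MAPK phosphatases compared was past 2-fold. *DUSP2* and *DUSP16* were listed at 0 in all 4 libraries. Of the 4 other Sprouty, SPRED and PEA3 genes, 1 was past 2-fold, *SPRED3*, with 868 fragments in U87MG si-NC and 1582 in U87MG si-*LINC00461* and a log2 ratio of 1.05 (0.93 to 1.17), whereas *SPRY3* had -0.37 (-0.71 to -0.04). Of 12 growth factor ligands compared, 3 were at least 2-fold lower (*FGF1* at -3.02, *PDGFA* at -1.75 and *TGFA* at -1.10 on the log2 scale) and 2 at least 2-fold higher (*EREG* at 3.02 and *HGF* at 2.69). Of 7 receptor tyrosine kinases, *EGFR* was lower at -1.10, and *PDGFRA* at 4.13, *PDGFRB* at 1.32 and *ERBB3* at 1.21 were higher, the last from 15 and 31 fragments. Ligands and receptors thus differed in both directions, with the EGFR ligand epiregulin (*EREG*) at 5020 and 35746 fragments and EGFR itself at 11989 and 4898.

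Of 19 genes from the adaptors to ERK, 1 was past 2-fold, *NRAS* at -1.21 (-1.28 to -1.15), and *BRAF* had the highest ratio at 0.81 (0.70 to 0.92). The counting interval lay above 0 for 8 of the 19 and below 0 for 3, beside 33.1% and 33.4% of all genes, and the list's median was 0.07. Of 11 other inhibitors of the cascade, 0 was past 2-fold in either direction, from *ERF* at -0.69 to *CBL* at 0.63. Other genes that ERK induces went both ways. Of 13 compared, *MYC* at -2.10, *EGR1* at -1.14 and *EPHA2* at -1.03 were at least 2-fold lower and *LIF* at 1.83 was at least 2-fold higher, with a median of 0.11. The immediate early gene *EGR1* was therefore lower in the library in which *DUSP6* and *SPRY4* were higher.

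**Figure D4:**
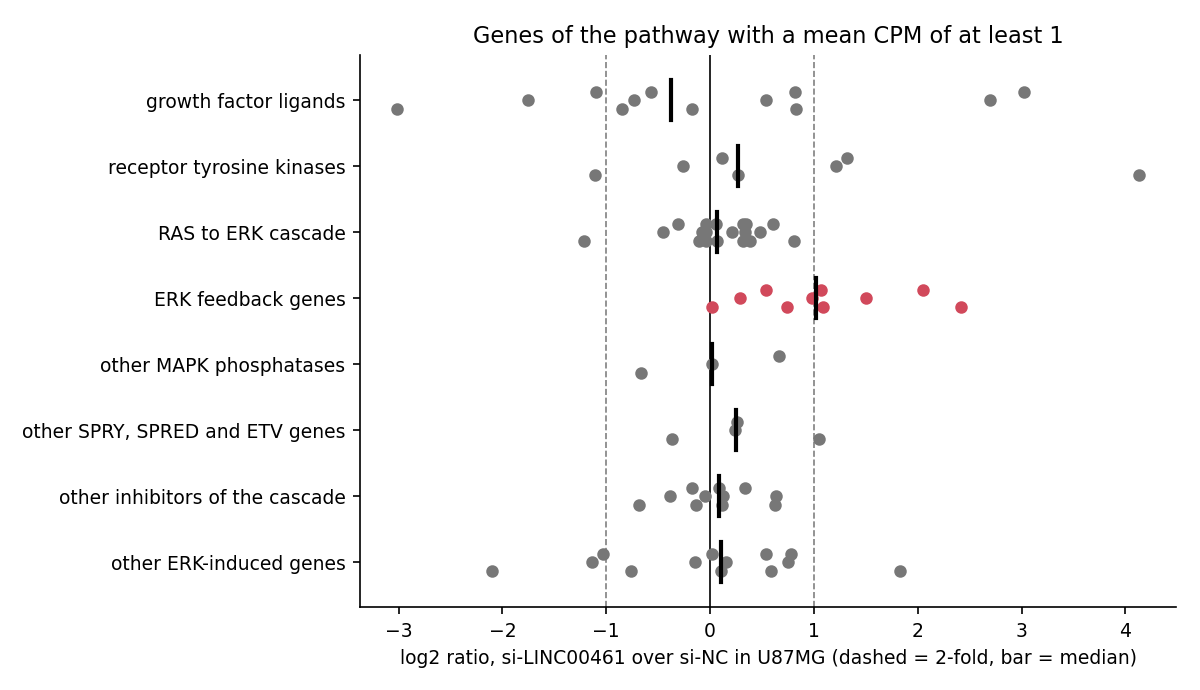
Log2 ratio of each pathway gene compared, si-*LINC00461* over si-NC in U87MG, by list, with the median of each list as a bar and dashed lines at 2-fold. The median of the feedback genes is 1.02, and the medians of the other lists lie between -0.37 and 0.26.

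Markers of other cell types moved in the same comparison. The summed level of 3 endothelial markers was 3.35 CPM in U87MG si-NC and 26.0 CPM in U87MG si-*LINC00461*, against 3.55 and 2.62 CPM in the R-U87MG libraries, and came mostly from *PECAM1* with 52 and 433 fragments, while *CDH5* had 7 and 14. The summed level of 4 neuronal markers was 66.0 and 135 CPM, against 34.3 and 31.0 CPM in the R-U87MG libraries. It came mostly from *SNAP25* with 1075 and 2057 fragments, while the defining marker *RBFOX3* had 3 and 0. All 3 neuronal markers compared had intervals above 0, beside 33.1% of all genes. Their log2 ratios ran from 0.60 for *SYT1* to 1.12 for *SNAP25*. Epithelial markers summed to 3.25 and 4.22 CPM, with *KRT20* at 0 in all 4 libraries, and leukocyte markers to 0.80 and 1.58 CPM. Of the 2 epithelial markers compared, *CDH1* was past 2-fold upward at 1.28 on the log2 scale and *EPCAM* had -0.09. *VIM* had 126719 and 56351 fragments, and the 7 glioma-line markers summed to 7975 and 4943 CPM. The part of these differences in the members' values was not tested.

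The R-U87MG si-HDAC6 library was set beside R-U87MG si-NC to see which RNAs differed after HDAC6 depletion in the resistant line. The 10 feedback genes lay near their level in the control library. Of the 10, 0 reached 2-fold in the downward direction and 0 in the upward direction, beside 0.747% and 0.694% of the 13120 genes compared. At 1.5-fold both counts were also 0, beside 2.52% and 2.68%. The members' ratios ran from -0.12 (-0.25 to 0.01) for *SPRED1* to 0.29 (0.18 to 0.41) for *DUSP5*, and their median was 0.05 against -0.01 over all genes.

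The 4 phosphatase genes were the members whose counting interval lay above 0. *DUSP5* went from 75.4 to 93.0 CPM, *DUSP4* from 144 to 165, *DUSP6* from 75.9 to 86.5 and *DUSP1* from 63.8 to 71.5. The ratios of R-U87MG si-HDAC6 over si-NC were 1.11-fold to 1.23-fold, short of 2-fold, with log2 ratios of 0.18 (0.10 to 0.27) for *DUSP4*, 0.18 (0.06 to 0.30) for *DUSP6* and 0.15 (0.02 to 0.28) for *DUSP1*. Over all genes, 13.8% had an interval above 0 and 16.4% one below, and without a replicate a difference of this size cannot be set against the spread between cultures. The intervals of the other 6 members spanned 0, at 0.07 for *SPRY2*, 0.03 for *SPRY4*, -0.01 for *SPRED2*, 0.01 for *ETV4* and -0.04 for *ETV5* beside *SPRED1*. No interval of a member in this comparison reached 1.5-fold in either direction.

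None of the 7 pathway lists had a gene past 2-fold after HDAC6 depletion. Among the list genes compared, the largest differences were *FOS* at 0.78 (0.47 to 1.09), from 156 and 204 fragments, and *AREG* at -0.77 (-1.68 to 0.04), from 41 and 18. Of the 12 other ERK-induced genes compared, 7 had an interval above 0 and 1 below, with a median of 0.13, and *CCND1* was lowest at -0.16. The lists' extremes were otherwise *DUSP10* at 0.46 and *DUSP7* at -0.02, *SPRED3* at 0.37 and *SPRY3* at -0.15, *ERBB2* at 0.26 and *PDGFRA* at -0.42, *KSR1* at 0.17 and *HRAS* at -0.36, *CIC* at 0.27 and *ERRFI1* at -0.11, and *HBEGF* at 0.17 among ligands.

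The control libraries of the resistant and the parental line were compared as well. They are the denominators of both knockdown comparisons, so these ratios are not independent of those above, and the authors scaled the files of each line separately. In R-U87MG si-NC relative to U87MG si-NC, 1 member was past 2-fold downward and 1 past 2-fold upward, beside 15.0% and 11.2% of the 13349 genes compared. The members' count was therefore near that of all genes. *DUSP1* was the lower one, with 63.8 CPM in R-U87MG si-NC and 109 CPM in U87MG si-NC. Its log2 ratio was -1.03 (-1.14 to -0.93) with TMM scaling and -0.77, short of 2-fold, with total counts, the scale of the CPM. *SPRY4* was the higher one, with 66.5 and 27.1 CPM, and its log2 ratio was 1.03 (0.88 to 1.18) with TMM scaling and 1.30 with total counts. Both TMM intervals span the 2-fold threshold, so that 0 members had an interval wholly beyond it, beside 10.8% of all genes downward and 6.34% upward. At 1.5-fold, 1 member was lower and 4 were higher, beside 25.1% and 23.1%.

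Every member's interval excluded 0 in this comparison, as did those of 39.4% of all genes above and 38.8% below. *DUSP5* at 0.82 (0.69 to 0.96), *ETV4* at 0.80 (0.57 to 1.04) and *SPRY2* at 0.79 (0.66 to 0.92) had ratios above 0, followed by *ETV5* at 0.34, *SPRED2* at 0.27 and *DUSP4* at 0.18. *DUSP6* and *SPRED1* had ratios below 0, each at -0.54 (-0.65 to -0.44). The direction was therefore mixed within the phosphatases and within the SPRED genes, whereas both Sprouty genes and both PEA3 genes had ratios above 0. With total counts in place of TMM scaling, the median of all genes moved from 0.02 to 0.28. The share of genes higher among those past 2-fold moved from 42.7% to 61.6%. Of the members, 0 were then lower and 4 higher, beside 1494 lower and 2399 higher of the 13349 genes compared. Markers also differed between the lines, with *OLIG2* at 2.58, *SNAP25* at -1.30 and *SYT1* at -1.92 on the log2 scale, and their part in the members' values was not tested.

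With U87MG si-NC as the shared denominator, the ratio of the resistant control and that of the *LINC00461* knockdown can be set side by side. *DUSP5* had log2 ratios of 0.82 for R-U87MG and 1.06 for the *LINC00461* knockdown, *SPRY2* 0.79 and 1.08, and *ETV4* 0.80 and 0.98. *SPRY4* had 1.03 and 2.05, *SPRED2* 0.27 and 1.504, and *DUSP6* -0.54 and 2.42. *DUSP4* had 0.18 and 0.74, *ETV5* 0.34 and 0.53, *SPRED1* -0.54 and 0.02, and *DUSP1* -1.03 and 0.28. The 2 ratios of a gene are not independent, because the value of U87MG si-NC moves both alike. For *DUSP5*, *SPRY2* and *ETV4*, U87MG si-NC was the low library of the 4, whereas for *DUSP6*, U87MG si-*LINC00461* was the high one.

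Other genes of the pathway differed in both directions between the lines, but with TMM scaling the cascade genes and the other inhibitors lay mostly below 0. With total counts the median of all genes moved from 0.02 to 0.28, so the sign of small ratios depends on the scaling. The pathway lists were not recounted with total counts. Over all genes, 15.0% were past 2-fold downward and 11.2% upward, and 38.8% had an interval below 0 and 39.4% one above. The other MAPK phosphatases compared, *DUSP7* and *DUSP10*, had ratios of 0.17 and 0.18. Of the 4 other Sprouty, SPRED and PEA3 genes, *SPRY1* at -2.25, *SPRED3* at -1.31 and *SPRY3* at -1.16 were at least 2-fold lower in R-U87MG, and *ETV1* had 0.10. Of 11 other inhibitors, *ERRFI1* at -3.29, *LRIG1* at -2.50 and *CIC* at -1.22 were at least 2-fold lower and 0 were higher. Their intervals lay below 0 for 8 and above 0 for 2, with *CBL* highest at 0.24 and a median of -0.51. Of 19 cascade genes, *MAP2K1*, which encodes a MEK, was lower at -1.09, and *SOS2* was highest at 0.98, short of 2-fold. Their intervals lay below 0 for 13 and above 0 for 4, with a median of -0.26. Of 13 ligands, 5 were lower (*TGFA* at -3.09, *BTC* at -2.20, *EGF* at -1.28, *HGF* at -1.17 and *NRG1* at -1.15) and 3 higher (*AREG* at 3.57, *FGF5* at 1.38 and *FGF2* at 1.26). Of 6 receptors, *PDGFRB* at -2.92 and *ERBB2* at -1.87 were lower and *PDGFRA* at 1.18 was higher, and of 13 other ERK-induced genes, *EPHA4* at -1.72 and *IER3* at -1.31 were lower and *CCND1* at 1.48, *FOS* at 1.42 and *FOSL1* at 1.07 were higher.

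To compare the members with each other, CPM were divided by the length of the gene's exons. On this scale *DUSP1* was the most abundant member in U87MG si-NC at 53.8 CPM per kb (95% counting interval 51.6 to 56.1), followed by *DUSP6* at 19.9. In U87MG si-*LINC00461* the order changed, with *DUSP6* first at 105 CPM per kb, *DUSP1* second at 64.8 and *SPRED2* next at 43.5. In R-U87MG si-NC *DUSP1* at 31.6, *DUSP5* at 28.8 and *SPRY2* at 27.7 CPM per kb led, and neighbours in this order had overlapping intervals. In R-U87MG si-HDAC6 *DUSP5* at 35.6 and *DUSP1* at 35.4 led and overlapped.

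*ETV4* was the lowest member per length in all 4 libraries, at 6.93 CPM per kb in R-U87MG si-NC, 7.04 in R-U87MG si-HDAC6, 3.31 in U87MG si-NC and 6.47 in U87MG si-*LINC00461*. In R-U87MG si-HDAC6 its interval overlapped that of *SPRED1* at 7.96. *SPRY4* was next to last in U87MG si-NC at 4.12 CPM per kb and stood at 16.9 in the knockdown. In U87MG si-NC the intervals of *SPRED2*, *DUSP4*, *DUSP5* and *SPRY2*, between 15.5 and 13.3 CPM per kb, each overlapped the next, and so did those of *SPRED1* and *ETV5*. In U87MG si-*LINC00461* the overlap was between *DUSP5* at 28.1 and *SPRY2* at 28.0. Measured against the longest transcript instead of all exons, *SPRED1* took the last place in both R-U87MG libraries.

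**Figure D5:**
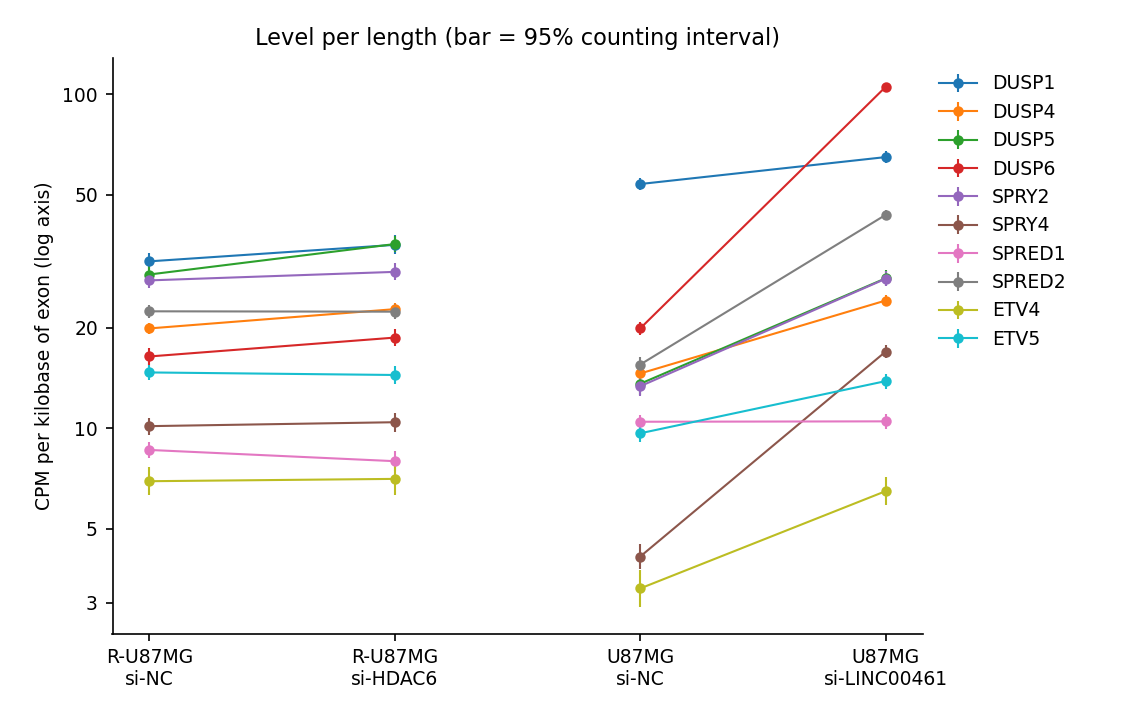
Level of each member per kilobase of exon (CPM per kb, log axis) in the 4 libraries, with 95% counting intervals; lines join the libraries of 1 cell line. *DUSP6* goes from 19.9 to 105 CPM per kb between the U87MG libraries and passes *DUSP1*, and *ETV4* is lowest in all 4.

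Reads shared with other genes touch few of the members. Of all stretches of 50 bases in the exons of a member, 0% occurred in another gene for 8 members, 1.35% for *SPRED1* and 1.96% for *ETV5*. *DUSP6* is overlapped on the opposite strand by AC024909.2, which had 8, 6, 5 and 27 fragments in R-U87MG si-NC, R-U87MG si-HDAC6, U87MG si-NC and U87MG si-*LINC00461*, and *SPRY4* by SPRY4-AS1, with 16, 13, 9 and 25. These antisense genes held few fragments beside those of *DUSP6* and *SPRY4*. *ETV4* is overlapped on the opposite strand by DHX8, with 1546, 1164, 1396 and 1420 fragments, and *ETV5* on the same strand by DGKG, with 684, 534, 710 and 589. The library kit kept the strand, but how strand was treated in the counting is not given in the sources used here, so the *ETV4* and *ETV5* values are less certain than the others.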

How the data were processed

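RNA-seq libraries of 4 conditions, 1 each, were made with a strand-specific kit and sequenced on an Illumina platform. The submitters' processing notes name bcl2fastq, Trimmomatic 0.36, HISAT2 and GRCh38.p13; the counting program is not given in the sources used here. The authors deposited, for every Ensembl gene, an estimated count times a factor that is constant within a library, with the libraries of each cell line scaled as a pair. Each value was divided by its library's factor and rounded to whole fragments; 93.4% to 94.2% of the values above 0, and all 40 values of the members, lay within 0.02 of a whole number. Of 58226 gene IDs, 57888 were in GENCODE 29 (GRCh38), which gave symbols, positions and exon lengths.

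Libraries were normalized in pairs with TMM (edgeR 4.0.16 in R 4.3.3). Log2 ratios were taken of counts plus 0.5 in libraries of unequal size, so the ratio of a gene with few counts is drawn toward a value other than 0. *DUSP2*, with 0 fragments in each library, was given 0.39 after HDAC6 depletion and 0.19 after *LINC00461* depletion, and was not among the genes compared. Comparisons took the genes whose mean CPM reached 1, and a gene counted as past the threshold at 2-fold or more. CPM are over library totals, without TMM. Intervals are exact binomial (Clopper-Pearson, 95%) and cover counting error only; no test of a condition was possible. Alternatives were total counts, DESeq2 1.42.0 size factors, upper quartile scaling, pseudocounts of 0.1 and 5, thinning, the values as deposited (not between the lines), no filter, a mean CPM of at least 5, a 1.5-fold threshold, an interval wholly beyond 2-fold and the longest transcript for length. The scaling, ratio and interval steps were tested on counts simulated with counting error only, so that test does not cover the spread between cultures. Genes named are the members, the targeted genes and, of each pathway list, those past 2-fold and the lowest and highest. Some cell type markers and some overlapping and neighbouring genes are named besides. The members and lists were chosen with earlier results of these data known. Promoter windows are RefSeq's (GRCh38.p14). Scripts ran under Python 3.11.15 with scipy 1.17.1, pandas 2.3.3, numpy 2.4.6 and matplotlib 3.10.9.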

Additional observations from a re-analysis of the deposited data

How the results depend on the processing

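After *LINC00461* depletion, the number of members at least 2-fold higher was 6 with upper quartile scaling, in which *ETV4* joined, 5 under every other scaling, pseudocount, filter and thinning tried and 7 at a 1.5-fold threshold, and was 3 where the whole interval had to lie beyond 2-fold. After HDAC6 depletion it was 0 in each direction under each alternative. Between the lines, where 1 member was lower and 1 higher, total counts gave 0 lower, 4 higher and a median of 0.57 in place of 0.30. Of the 13349 genes compared, total counts gave 1494 lower and 2399 higher. Upper quartile scaling gave 0 members higher, beside 1382 of all genes. A 1.5-fold threshold gave 4 members higher, and an interval wholly beyond 2-fold gave 0 lower and 0 higher. Of 200 ratios of single members under alternatives, 190 moved by less than their counting interval, and the 10 that moved more were those with total counts between the lines. The ratio of *SPRED1* after *LINC00461* depletion ran from -0.01 to 0.05. With the longest transcript, 29 of the 40 levels per kilobase moved beyond their counting interval.

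Over all genes, no filter on low values gave 3050 lower and 2465 higher genes after HDAC6 depletion (98 and 91 with the filter), 4243 and 3799 after *LINC00461* depletion (1079 and 716) and 5793 and 4772 between the lines (2008 and 1494). A mean CPM of at least 5 gave 16 and 16 after HDAC6 depletion and 442 higher after *LINC00461* depletion, a pseudocount of 5 gave 43 lower and 72 higher after HDAC6 depletion, and total counts gave 2399 higher between the lines. No paired analysis was possible because each condition had 1 library. Depth was not the limit for most members, which had 239 fragments or more in every library; the lack of replicate cultures was, and no value here separates a difference between conditions from one between cultures.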

Other observations

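The genes that lie next to the members, among those with a mean CPM of at least 1 within 500 kb, lay on both sides of 0 after *LINC00461* depletion. *FGF1*, 266 kb from *SPRY4*, encodes a ligand of the FGF receptors and had 179 fragments in U87MG si-NC and 19 in U87MG si-*LINC00461*, a log2 ratio of -3.02, while *SPRY4* had 2.05. *ACTR2*, 39.6 kb from *SPRED2*, encodes a subunit of the ARP2/3 complex that nucleates actin and had 6067 and 1176 fragments, a log2 ratio of -2.18, while *SPRED2* had 1.504. *NEURL1B*, 76.6 kb from *DUSP1*, had 245 and 42 fragments and a log2 ratio of -2.34, while *ERGIC1* on its other side had 0.11. *POC1B*, 66.4 kb from *DUSP6*, had 203 and 315 fragments and a log2 ratio of 0.82, below the 2.42 of *DUSP6*. *SMC3* beside *DUSP5* had -0.17, *KIF13B* beside *DUSP4* had 0.28 and *DUSP3* beside *ETV4* had -0.74. After HDAC6 depletion, the ratios of *FGF1*, *ACTR2*, *NEURL1B* and *POC1B* were -0.07, -0.08, -0.21 and -0.18. These neighbours were named after their values were seen.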
